A study of Mus musculus with 6 samples.

Results

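Somatostatin and its receptors, with other neuropeptides of forebrain neurons, form a set of 10 genes among the 23420 rows of the count table. They are the peptide precursor genes Sst, Npy, Penk, Tac1, Cck and Adcyap1 and the somatostatin receptor genes Sstr1, Sstr2, Sstr3 and Sstr4. The rows were found by gene symbol. The set was chosen by its measured genotype differences: it was picked because Sstr1 was higher and Npy and Penk were lower in mutant-labelled cortex, so the genotype differences of its members are given as a description and not as tests. All 10 members passed the filter on low counts, which kept 14618 genes.

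The libraries came from neocortex of mouse embryos at embryonic day 18.5, of the genotype labelled Tshz3 mutant or wild type. Tshz3 belongs to the teashirt genes, which encode zinc finger transcription factors. There were 3 libraries per genotype, each from its own pool of cortices of 3 to 4 embryos drawn from several litters. The library titles abbreviate the mutant-labelled group as KO, for knockout. Beyond that the labels describe neither the mutant allele nor the strain or sex of the embryos. Library totals ran from 18569383 to 24147810 counts. Tshz3 itself was 94.0 ± 4.77 CPM in the mutant-labelled group and 83.7 ± 5.34 CPM in wild type (SD, n = 3 each), where CPM is the count scaled to library size. With a log2 fold change of 0.17 (SE 0.07) and an edgeR adjusted p of 0.669, the gene-level count does not check the genotype labels.

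Neuropeptides are cut from larger precursor proteins, stored in dense-core granules and released to act on G protein-coupled receptors. In the cortex somatostatin and neuropeptide Y are made mainly by GABA-releasing interneurons. The somatostatin receptors couple to inhibitory G proteins, which lower adenylyl cyclase activity and open inwardly rectifying potassium channels, whereas the receptor for the Adcyap1 product PACAP stimulates adenylyl cyclase.

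The sequence before the transcription start as RefSeq places it is shown first, because several of these precursor genes are textbook targets of the cyclic AMP response element. RefSeq promoter windows on GRCm38.p6 were present for 8 of the 10 members, and Sstr1 and Penk had none. The 250 bases before each start were searched on both strands for the full element TGACGTCA and its core TGACG, which every full element holds in both orientations. The capitals below mark the full element in Sst and Sstr2, and the core, written CGTCA when read from the other strand, in the remaining genes.
Sst: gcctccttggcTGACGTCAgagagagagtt
Sstr2: ccaagctgccgTGACGTCAcgggcgggggc
Adcyap1: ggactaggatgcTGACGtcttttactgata
Tac1: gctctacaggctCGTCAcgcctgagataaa
Cck: cctgctggactgCGTCAgcactgggtaaac
Sstr3: acgtgtcctggagatggggggTGACGtacc

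The Sst stretch lies at chr16:23890874-23890903 on the minus strand, and its element begins 48 bases before the RefSeq start. The Sstr2 stretch lies at chr11:113619258-113619287 on the plus strand, with the element 58 bases before the RefSeq start. The Adcyap1, Tac1, Cck and Sstr3 stretches lie at chr17:93198914-93198943 (plus), chr6:7555006-7555035 (plus), chr9:121495724-121495753 (minus) and chr15:78544346-78544375 (minus). The RefSeq start lies 114 bases inside the gene as GENCODE annotates it for Sst, 182 bases inside for Tac1 and 340 bases inside for Sstr3, so these 3 stretches fall within the GENCODE genes whose positions are given below. The other 3 lie before the start in both annotations. Adcyap1 and Sstr3 each have a second annotated start, and Tac1 holds a further core 197 bases before its start. The Adcyap1 core falls within both windows, and the second Sstr3 window holds none. Among 32851 promoter windows of the same length, 1.55% held the full element and 17.8% held the core. Windows of 6 of the 8 matched members held at least the core, and those of Npy and Sstr4 did not.

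Npy, the only one of the 3 genes named in the choice of the set that had a window, is shown over the whole 250 bases of chr6:49822460-49822709 on the plus strand. Its window held neither element, and it held no match to the AP-1 motif TGANTCA or the Egr motif GCGNGGGCG, which 6.75% and 4.7% of all windows held. The capitals mark its only GC box, GGGCGG, a motif found in 32.7% of all windows.
Npy: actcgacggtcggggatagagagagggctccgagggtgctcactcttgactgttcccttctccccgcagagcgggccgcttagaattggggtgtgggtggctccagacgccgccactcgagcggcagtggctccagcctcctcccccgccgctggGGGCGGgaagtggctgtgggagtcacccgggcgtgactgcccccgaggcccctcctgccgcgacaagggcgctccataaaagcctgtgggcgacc

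Sst, the somatostatin precursor, was among the most variable members. It lies on chromosome 16 from 23889573 to 23890958 on the minus strand of GRCm38. Its level was 46.6, 37.4 and 62.1 CPM in mutant-labelled libraries 1, 2 and 3, against 70.2, 40.2 and 71.6 CPM in wild-type libraries 1, 2 and 3. The genotypes overlapped widely, and in both the library numbered 2 was the lowest. The log2 fold change, mutant-labelled over wild type, was −0.32 (SE 0.27), or −0.30 (SE 0.09) when libraries were paired by number. With single libraries left out it ran from −0.54 without wild-type library 2 to −0.16 without mutant-labelled library 2. Within the genotypes Sst had a coefficient of variation of 27.4%, set beside 2.98% from counting alone and a median of 8.62% over all tested genes.

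Sstr1, a somatostatin receptor gene, was the member with the largest increase. It lies on chromosome 12 from 58211772 to 58214444 on the plus strand. Its level was 72.8, 77.0 and 81.3 CPM in mutant-labelled libraries 1, 2 and 3, against 44.0, 48.5 and 58.0 CPM in wild-type libraries 1, 2 and 3. Every mutant-labelled library lay above every wild-type library. The mean was 77.0 ± 4.26 CPM in the mutant-labelled group and 50.2 ± 7.11 CPM in wild type (SD, n = 3 each), a ratio of 1.53 and a fitted log2 fold change of 0.62 (SE 0.10). Within same-numbered pairs the log2 difference was 0.72, 0.66 and 0.49.

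The other somatostatin receptor genes did not share that pattern. Sstr2, on chromosome 11 from 113619342 to 113626028, was 19.98, 19.8 and 19.9 CPM in mutant-labelled libraries, against 21.5, 23.0 and 18.1 CPM in wild type. The wild-type libraries spread to either side of the tightly grouped mutant-labelled ones, and the log2 fold change was −0.07 (SE 0.10). Sstr3, on chromosome 15 from 78537008 to 78544685, was 2.78, 2.59 and 3.53 CPM in mutant-labelled libraries, against 2.99, 3.91 and 4.03 CPM in wild type. Its genotypes overlapped, with a log2 fold change of −0.30 (SE 0.20). Sstr4, on chromosome 2 from 148395344 to 148396767, had only 112 reads over all libraries. It was 0.848, 1.08 and 0.957 CPM in mutant-labelled libraries, against 0.332, 1.45 and 0.653 CPM in wild type, and its log2 fold change of 0.25 (SE 0.48) was 0.98 without wild-type library 2. Sstr5, the remaining somatostatin receptor gene, had 0.358 ± 0.0844 CPM in the mutant-labelled group and 0.525 ± 0.227 CPM in wild type and did not pass the filter.

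Per kilobase of exon, Sstr1 was the most abundant of the 5 receptor transcripts in every library. It made up 76.9%, 77.9% and 78.4% of their summed level per kilobase in mutant-labelled libraries, against 65.9%, 64.7% and 74.0% in wild type. The summed receptor level was 48.4 ± 2.22 CPM per kilobase in the mutant-labelled group and 35.9 ± 2.9 CPM per kilobase in wild type (SD, n = 3 each), and Sstr1 alone was 37.6 ± 2.08 and 24.5 ± 3.47 CPM per kilobase in the mutant-labelled and wild-type groups.

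Npy, the neuropeptide Y precursor, was lower with little spread. It lies on chromosome 6 from 49822710 to 49829507 on the plus strand. Its level was 61.0, 59.9 and 66.1 CPM in mutant-labelled libraries, against 79.6, 84.9 and 83.7 CPM in wild type. Every mutant-labelled library lay below every wild-type library, and the gap between the groups was wider than the range within either. The ratio of means was 0.754, with a fitted log2 fold change of −0.41 (SE 0.06) and within-pair differences of −0.38, −0.50 and −0.34. Its coefficient of variation within genotypes was 4.36%, the smallest of the 10 members.

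Penk, which encodes the enkephalin opioid precursor, was lower in each pair but overlapped between genotypes. It lies on chromosome 4 from 4133531 to 4138819 on the minus strand. Its level was 10.2, 9.63 and 14.001 CPM in mutant-labelled libraries, against 19.7, 12.4 and 17.6 CPM in wild type. Mutant-labelled library 3 exceeded wild-type library 2, and the log2 difference was −0.94 in pair 1 and −0.36 and −0.33 in pairs 2 and 3. The fitted log2 fold change was −0.55 (SE 0.21). The non-coding gene A830012C17Rik lies on the opposite strand and shares 233 exon bases with Penk, so with the strand setting of the counting unknown the Penk count is uncertain.

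Tac1, the precursor of substance P and neurokinin A, was likewise lowest in library 2 of each genotype, with a smaller difference between genotypes. On chromosome 6 from 7554879 to 7565834, it was 18.3, 15.2 and 18.0 CPM in mutant-labelled libraries, against 25.3, 16.7 and 19.3 CPM in wild type. The genotypes overlapped, and wild-type library 1 stood above the other 5. The log2 fold change was −0.25 (SE 0.16), and −0.07 without that library.

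Cck, the cholecystokinin precursor, showed no genotype difference beyond its error. On chromosome 9 from 121489824 to 121495694, it was 17.7, 21.9 and 21.1 CPM in mutant-labelled libraries, against 21.7, 19.9 and 21.3 CPM in wild type. The groups overlapped, and the log2 fold change was −0.05 (SE 0.10). Adcyap1, the PACAP precursor, was the only one of the 6 precursor members with a higher mean in mutant-labelled libraries. On chromosome 17 from 93199017 to 93206537, it was 12.6, 10.7 and 12.6 CPM in those libraries, against 8.72, 7.87 and 10.9 CPM in wild type. Mutant-labelled library 2 fell just below wild-type library 3, so the groups overlapped, and the log2 fold change was 0.39 (SE 0.15), with within-pair differences of 0.53, 0.44 and 0.21.

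**Figure D1:**
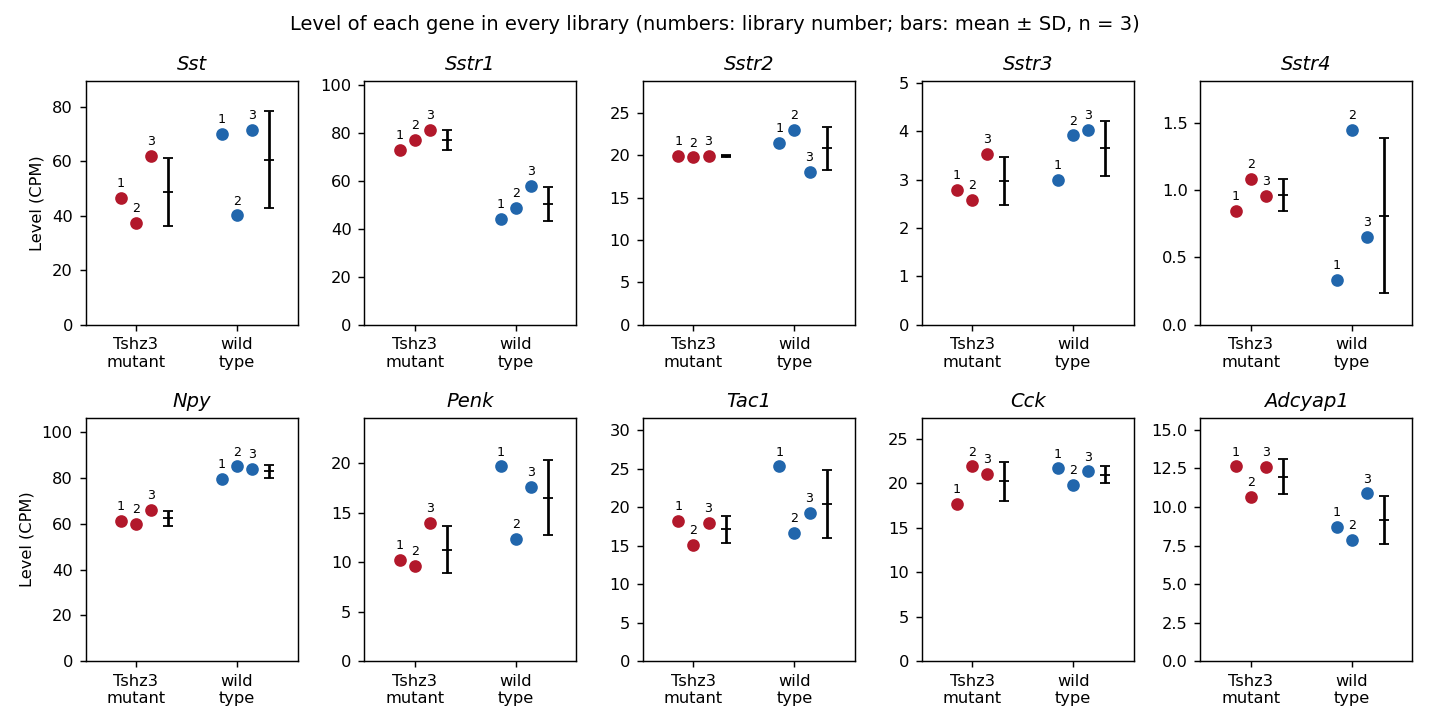
Level in CPM (vertical axes, each starting at 0) of the 10 genes in every library, mutant-labelled in red on the left and wild type in blue on the right, numbered by library, with mean ± SD in black (n = 3). Sstr1 and Npy are the only members of the 10 whose genotypes do not overlap, and library 2 is the lowest of its genotype for Sst, Penk, Tac1 and Adcyap1.

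Of the 10 members 0 were called by edgeR without pairing (quasi-likelihood test, adjusted p threshold 0.05), which 0.0752% of all tested genes passed. At an unadjusted p under 0.05 there were 4 of 10 members and 7.09% of all tested genes. With libraries paired by number, Sstr1 passed as higher and Npy and Penk as lower, 3 of 10, where 3.46% of all tested genes passed, 1.97% as higher and 1.49% as lower. DESeq2 without pairing called Sstr1 higher and Npy lower, with 0.719% of its genes called. The groups did not overlap for 2 of 10 members, 1 in each direction, against 13.5% of all tested genes, 7.42% higher and 6.09% lower. Because this contrast picked the members, no weight can be put on these counts.

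The Sstr1 and Npy calls with pairing were also made with any 1 pair left out. The Penk call was lost without pair 1 and without pair 3. Without pair 2 the paired fit also called Sst and Tac1 lower and Adcyap1 higher (edgeR adjusted p = 2.39e-08, 0.0227 and 0.0267). That fit called 1119 genes higher and 755 lower of 14628 tested, against 288 and 218 of 14618 with all pairs. With all pairs the edgeR adjusted p of Sst was 0.0943. The pairing itself rests on the data: same-numbered libraries deviated together from their group means, with correlations across genes of 0.60, 0.49 and 0.44, while the labels do not say what the numbers share.

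**Figure D2:**
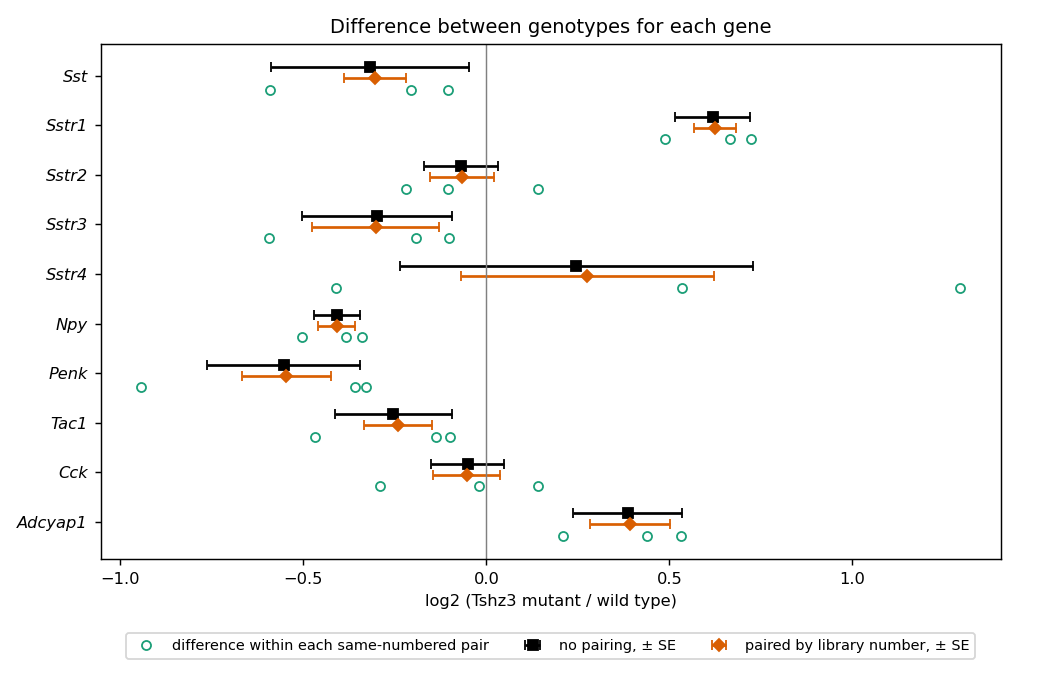
Log2 difference between mutant-labelled and wild-type libraries for each gene (horizontal axis), as fitted without pairing (black squares, ± SE), fitted with pairing (orange diamonds, ± SE) and within each same-numbered pair (open green circles). Sstr1 lies right of 0 and Npy and Penk left of 0 in all 3 pairs, while Sstr2, Sstr4 and Cck have pairs on both sides.

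The order of levels among the members can be read only per exon length. In wild type Npy had the highest level at 146 ± 4.92 CPM per kilobase, followed by Sst at 84.1 ± 24.6, Sstr1 at 24.5 ± 3.47 and Cck at 16.1 ± 0.742, and these did not overlap each other. Penk at 10.1 ± 2.3 and Sstr2 at 9.74 ± 1.19 did not differ beyond their spread, and Tac1 at 6.02 ± 1.3 and Adcyap1 at 2.43 ± 0.411 lay below them. Sstr3 at 0.843 ± 0.132 and Sstr4 at 0.570 ± 0.404 overlapped at the bottom. In mutant-labelled libraries the order was the same except that Sstr2, at 9.28 ± 0.0544 CPM per kilobase, lay above Penk, at 6.91 ± 1.45. Exon lengths were taken from GENCODE and ran from 566 bases for Npy to 4320 for Sstr3, so a transcript that ends early in this tissue would be set too low.

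**Figure D3:**
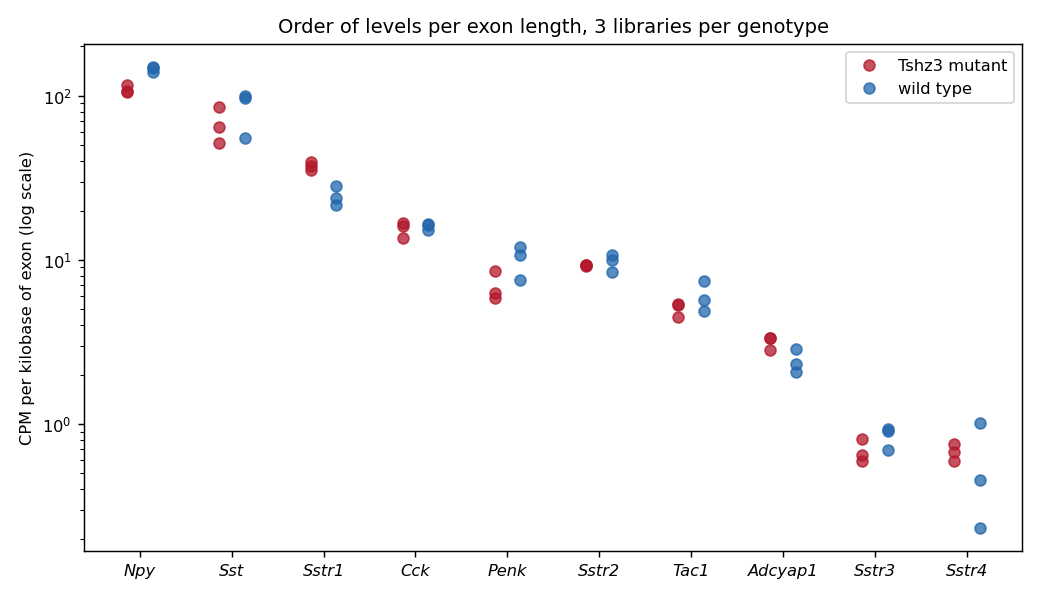
Level per kilobase of exon (vertical axis, log scale, in CPM per kilobase) of the 10 genes, ordered by their wild-type mean, with mutant-labelled libraries in red left of wild-type libraries in blue. Npy and Sst lead in both genotypes, and Sstr3 and Sstr4 lie at the bottom near or below 1 CPM per kilobase.

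Some members varied together between libraries of one genotype. The deviations of Sst from its group means correlated with those of Penk at r = 0.96, of Adcyap1 at r = 0.77 and of Tac1 at r = 0.74 over the 6 libraries, a description of few points that share their scaling. Those of Npy and Sstr3 correlated at r = 0.96, and those of Tac1 and the thinly counted Sstr4 at r = −0.93. The pairs named here are among the more strongly correlated of all member pairs. Within genotypes Sstr3 had a coefficient of variation of 16.2%, against 12.1% from counting alone, and Npy 4.36% against 2.58%. Gad1, which encodes a GABA-synthesizing enzyme and was singled out after its values were seen, was 139, 111 and 125 CPM in mutant-labelled libraries, against 145, 114 and 130.2 CPM in wild type. As for Sst, library 2 was the lowest in each genotype. Gad2, a further interneuron marker, did not share this in wild type, with 1600, 1526 and 1316 reads in libraries 1, 2 and 3. In bulk tissue fewer cells of a type and less RNA per cell cannot be told apart.

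The genes most like Sstr1, Npy and Penk across the 6 libraries were taken by Pearson correlation of log2 CPM among 12757 other tested genes. Likeness here includes the genotype difference, and with so many genes ranked over 6 points high values are common. The closest to Sstr1 were Slc26a6, an anion exchanger gene (r = 0.994), the neurotrophin gene Bdnf (r = 0.991), Snph, which encodes a mitochondrial docking protein of axons (r = 0.991), and the LIM cofactor gene Ldb2 (r = 0.989). Ldb2 was 165 ± 4.53 CPM in the mutant-labelled group and 129 ± 6.07 CPM in wild type. The closest to Npy were Ebi3, the homeobox gene Pknox2, Syndig1l and Spsb1, with r of 0.983 to 0.996, and Syndig1l was 17.8 ± 1.85 CPM in the mutant-labelled group and 27.2 ± 1.88 CPM in wild type. The closest to Penk were Pdzd4, the lipid peroxidase gene Gpx4, Strn4 and Epdr1, with r of 0.988 to 0.992. These last genes had log2 fold changes from −0.11 to −0.07.

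Other peptide precursor genes showed no called change with all libraries in the fit. Of 42 listed, 20 passed the filter, and 0 passed edgeR's test with or without pairing or DESeq2, while 1 had an unadjusted p under 0.05. Their median log2 fold change was −0.05, beside −0.01 over all tested genes. Nts, the neurotensin precursor, had the highest CPM of the list, at 71.4 ± 3.86 CPM in the mutant-labelled group and 55.5 ± 12.8 CPM in wild type (log2 fold change 0.36, edgeR adjusted p = 0.717, paired 0.271). Its groups did not overlap, and the log2 fold change was 0.53 without wild-type library 1 and 0.20 without wild-type library 2. The paired edgeR fit called Nts higher without pair 1 (adjusted p = 1.34e-05) and without pair 2 (0.00287). Without pair 1 that fit called 141 of 14547 tested genes higher, and without pair 2 it called 1119 of 14628. Cort, which encodes the somatostatin relative cortistatin, was 3.53 ± 0.496 CPM in the mutant-labelled group and 3.75 ± 0.173 CPM in wild type. Trh, the thyrotropin-releasing hormone precursor, was 0.99, 1.04 and 0.957 CPM in mutant-labelled libraries, against 1.90, 1.26 and 1.42 CPM in wild type, without overlap and with an adjusted p of 0.678, paired 0.243.

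Receptor genes of the members' peptide families likewise showed none past the threshold with all libraries in the fit. Of 18 listed, 12 were tested and 0 passed edgeR's test with or without pairing or DESeq2, while 1 had an unadjusted p under 0.05, and the median log2 fold change was −0.01. The highest in CPM were Adcyap1r1, the PACAP receptor gene, at 161 ± 8.73 CPM in the mutant-labelled group and 164 ± 6.46 CPM in wild type, and the opioid-family receptor gene Oprl1, whose ligand nociceptin comes from a precursor outside the 10 members, at 75.04 ± 1.47 CPM in the mutant-labelled group and 74.5 ± 6.99 CPM in wild type. The neuropeptide Y receptor genes Npy1r, Npy2r and Npy5r had log2 fold changes of 0.17 (SE 0.13), 0.37 (SE 0.23) and 0.54 (SE 0.30). All 3 had higher means in mutant-labelled libraries, and none passed. With single libraries left out Npy1r ran from 0.05 to 0.31 (without wild-type libraries 1 and 2), Npy2r from 0.22 to 0.62 (without wild-type libraries 1 and 3) and Npy5r from 0.34 to 0.76 (without wild-type libraries 2 and 3). Tacr3, a tachykinin receptor gene, had a log2 fold change of 0.53 (SE 0.23). Without pair 2 the paired edgeR fit called Npy1r and Tacr3 higher (adjusted p = 0.0186 and 0.0432). That fit called 1119 of 14628 tested genes higher. Vipr1, a receptor for the peptide VIP that also binds PACAP, was 2.36, 2.46 and 2.27 CPM in mutant-labelled libraries, against 3.03, 3.91 and 3.92 CPM in wild type. Its groups did not overlap, and its log2 fold change of −0.61 (SE 0.18) had an adjusted p of 0.472, paired 0.0759.

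Genes that cut, amidate, store and release peptides changed little. Of 20 tested, with a median log2 fold change of −0.05, 0 passed edgeR's test without pairing or DESeq2. An unadjusted p under 0.05 was found for 4 (7.09% of all tested genes). Pairing called 1 higher and 1 lower, where it called 1.97% and 1.49% of all tested genes. The carboxypeptidase gene Cpd was 84.9 ± 6.31 CPM in the mutant-labelled group and 73.7 ± 6.34 CPM in wild type, and it rose by 0.20 (SE 0.05, paired edgeR adjusted p = 0.034, unpaired 0.678). Chgb, which encodes the granule protein chromogranin B, was 77.6 ± 3.04 CPM in the mutant-labelled group and 90.7 ± 10.5 CPM in wild type, and it fell by 0.22 (SE 0.05, paired adjusted p = 0.0359, unpaired 0.653). The Cpd call was lost without pair 3, and the Chgb call without pair 1 or pair 3. Cpe, the main carboxypeptidase of neuropeptide granules, had the highest CPM of the list, at 524 ± 28.5 CPM in the mutant-labelled group and 570.1 ± 65.2 CPM in wild type.

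Among 25 genes of signalling behind the somatostatin receptors, all tested, edgeR called 0 without pairing and, when paired, 0 higher and 3 lower. Over all tested genes the paired fit called 1.97% higher and 1.49% lower. Without pairing 4 had an unadjusted p under 0.05 (7.09% of all tested genes). DESeq2 called 2 lower (0.719% of its genes in either direction), and the list's median log2 fold change was −0.0028. Adcy1, a calcium-stimulated adenylyl cyclase gene, was 273, 331 and 301 CPM in mutant-labelled libraries, against 363, 407 and 418 CPM in wild type, and it fell by 0.39 (SE 0.05, paired edgeR adjusted p = 0.000199, unpaired 0.281). Adcy2, a further adenylyl cyclase gene, was 36.2, 36.6 and 37.7 CPM in mutant-labelled libraries, against 52.0, 45.1 and 48.9 CPM in wild type, and it fell by 0.40 (SE 0.06, paired adjusted p = 0.00307, unpaired 0.162). The groups did not overlap for either cyclase gene, and DESeq2 called both without pairing. Mutant-labelled libraries lay wholly below wild type for 6.09% of all tested genes. Rgs4, which shortens signalling by inhibitory G proteins, was 47.7 ± 7.39 CPM in the mutant-labelled group and 59.1 ± 6.01 CPM in wild type and fell by 0.31 (SE 0.06, paired adjusted p = 0.0117, unpaired 0.678). The Adcy2 and Rgs4 calls were lost without pair 3, and the Adcy1 call stood without any 1 pair. The G protein gene Gnao1, the highest of the list in CPM, was 746 ± 22.8 CPM in the mutant-labelled group and 772 ± 30.3 CPM in wild type.

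**Figure D4:**
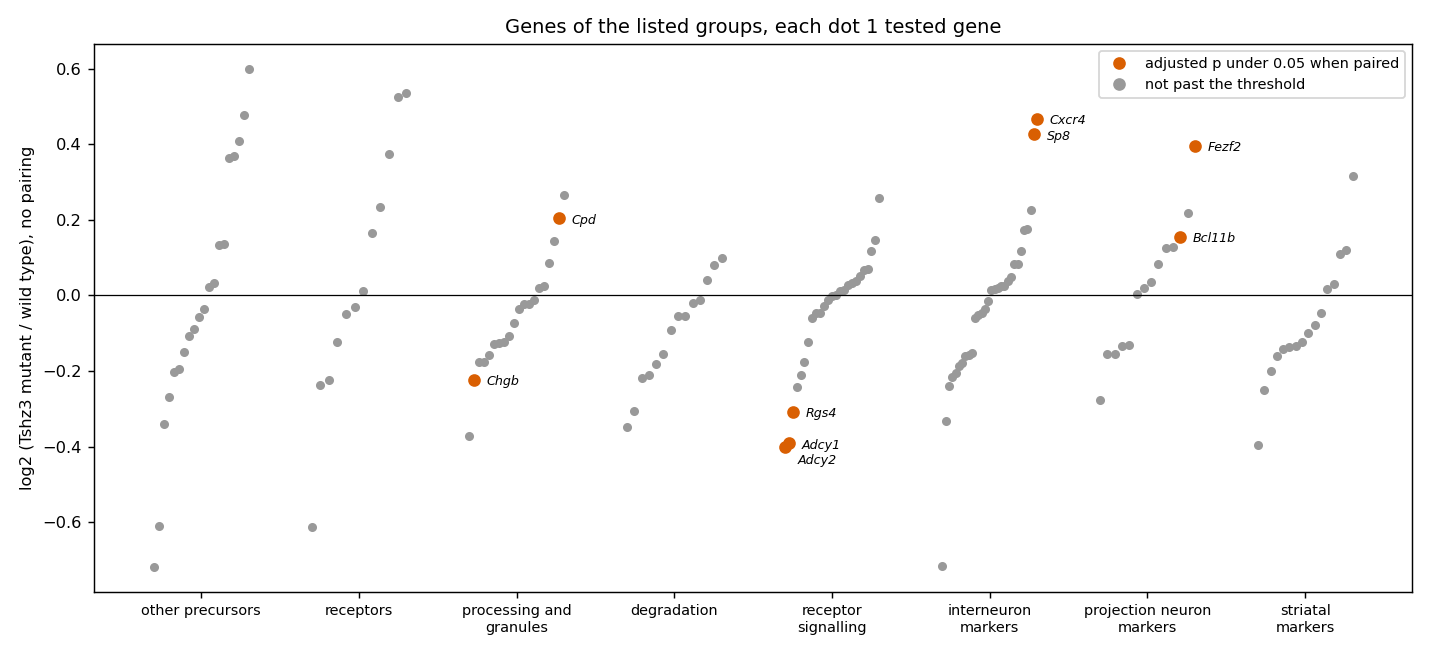
Log2 fold change without pairing (vertical axis, mutant-labelled over wild type) of every tested gene in 8 lists, ranked within each list, with genes past the paired threshold in orange and named. Named genes are Cpd and Chgb in processing, Adcy1, Adcy2 and Rgs4 in signalling, Cxcr4 and Sp8 among interneuron markers, and Fezf2 and Bcl11b among projection neuron markers.

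Markers of the cells that carry these peptides were set beside the members. The 31 interneuron markers summed to 1366 to 1444 CPM in the mutant-labelled group and 1319 to 1483 CPM in wild type, so the summed level overlapped where Npy did not. Of 30 tested, 2 passed as higher and 0 as lower with pairing, both known from migrating interneurons. Over all tested genes pairing called 1.97% higher and 1.49% lower. Without pairing 0 passed edgeR's test and 4 had an unadjusted p under 0.05 (7.09% of all tested genes). DESeq2 called 1 (0.719% of its genes). Cxcr4, a chemokine receptor gene, was 48.5 ± 1.41 CPM in the mutant-labelled group and 35.1 ± 3.92 CPM in wild type. Sp8, a transcription factor gene, was 11.6 ± 1.47 CPM in the mutant-labelled group and 8.62 ± 1.08 CPM in wild type. The Cxcr4 call was lost without pair 3, and the Sp8 call without pair 1 or pair 3. The list had 15 positive and 15 negative log2 fold changes. Among 5 transcription factor genes of the lineage that yields somatostatin interneurons, all named after their values were seen, the log2 fold change was −0.19 for Sox6, −0.16 for Lhx6, 0.02 for Nkx2-1, 0.08 for Satb1 and 0.12 for Maf. None of these 5 passed edgeR's test with or without pairing, or DESeq2.

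Projection neuron markers summed to 2538 to 2631 CPM in the mutant-labelled group and 2464 to 2696 CPM in wild type. Pairing called Fezf2 and Bcl11b higher, 2 of 14, where it called 1.97% of all tested genes higher. Without pairing 0 passed edgeR's test, with 6 at an unadjusted p under 0.05 (7.09% of all tested genes). DESeq2 called 1 (0.719% of its genes). Bcl11b was not called without pair 1 or pair 3. Penk and Tac1 are abundant in the striatum, which borders the neocortex. The 16 striatal markers were all detected. They summed to 763, 747 and 731 CPM in mutant-labelled libraries, against 802, 818 and 746 CPM in wild type. The sum was lower in the mutant-labelled library of each same-numbered pair, though the genotypes overlapped. Their median log2 fold change was −0.11, beside −0.01 over all tested genes, with 5 positive and 11 negative. Of these markers 0 passed edgeR's test with or without pairing or DESeq2, and 1 had an unadjusted p under 0.05. The dopamine receptor gene Drd2 marks the striatal neurons that make enkephalin and was singled out after its values were seen. It was 7.26, 6.46 and 5.44 CPM in mutant-labelled libraries, against 7.68, 6.91 and 6.42 CPM in wild type. The part of striatal tissue in the Penk and Tac1 values was not tested.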

How the data were processed

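RNA sequencing libraries were made from pooled embryonic cortices with a stranded kit, per the labels' protocols. The values the authors deposited are raw counts of reads per gene symbol. Per the submitters' processing notes the tools included HTSeq 0.5.3p9, TopHat2 2.0.9, Bowtie2 2.1.0 and CASAVA 1.8.2, with build mm10. For their roles, the annotation and the strand setting nothing is given in the sources used here. Columns were matched to libraries by title.

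All genes were tested in edgeR 4.0.16 (R 4.3.3) with the quasi-likelihood test, TMM scaling, default expression filtering and Benjamini-Hochberg adjustment over 14618 genes, two-sided, without pairing. The fit was repeated with the library number as a block, because same-numbered libraries correlated above 0.1 in all 3 pairs. Standard errors come from the F statistic. Alternatives were DESeq2 1.42.0, another scaling, no filter and leaving out libraries or pairs. The code of the fits was also run on simulated counts, with pair effects built in and changes larger than the members' fitted differences. That run does not bear on whether the calls reported here are right. Replicates of a genotype exceeded sampling noise (chi-square over its degrees of freedom, 7.13 to 23.1).

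The members and the 10 gene lists, of 202 names, were chosen with earlier results of these data known. The list of processing genes also holds Peg3, an imprinted gene with no known part in processing. Named genes were the members, Tshz3, called list genes, up to 2 genes of the highest level in a list and the 4 genes most like Sstr1, Npy and Penk, and any other was named after its values were seen. Gene positions and exon lengths are from GENCODE M21 (GRCm38), and promoter windows from RefSeq. Some listed genes are not reported here.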

Additional observations from a re-analysis of the deposited data

How the results depend on the processing

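Sst, Sstr1, Sstr3, Npy, Penk, Tac1 and Adcyap1 kept the sign of their log2 fold change in all 14 settings run. Sstr2, Sstr4 and Cck each kept it in 12. Sstr1 ran from 0.53 to 0.73, Npy from −0.45 to −0.36 and Penk from −0.73 to −0.34. Sstr4 ran from −0.14 to 0.98 as single libraries were left out, the highest without wild-type library 2. Counts of calls moved far more. Over all genes edgeR without pairing called 7 higher and 4 lower, DESeq2 59 and 43, no filter 11 and 9, and the block by library number 288 and 218. With single libraries left out the counts were 1 to 21 higher and 2 to 14 lower. With single pairs left out of the paired fit they were 35 to 1119 and 27 to 755 (141 and 154 without pair 1). The highest of these paired counts came without pair 2 and the lowest without pair 3. In the gene lists 0 were called without pairing, 2 higher and 2 lower by DESeq2, 5 and 4 when paired, and 1 to 17 and 2 to 25 with a pair left out (5 and 3 without pair 1). Among the members DESeq2 called 1 higher and 1 lower, pairing 1 and 2, and pairing with a pair left out 1 to 2 and 1 to 4. The cause of these shifts was not tested. The depth limits Sstr4 most, with a counting error of 23.1% per library.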

Other observations

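Genes of peptide breakdown were also measured. Of 14 peptidase genes, all tested, 0 passed edgeR's test with or without pairing or DESeq2 and 0 had an unadjusted p under 0.05, and their median log2 fold change was −0.07. The list summed to 644 to 651 CPM in the mutant-labelled group and 649.7 to 663 CPM in wild type. Npepps, a broad aminopeptidase gene, had the highest CPM of the list, at 219 ± 5.98 CPM in the mutant-labelled group and 227 ± 7.94 CPM in wild type.

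Markers of thalamus and of non-neuronal cells did not separate the genotypes. The 4 thalamic markers summed to 7.55 to 11.6 CPM in the mutant-labelled group and 8.26 to 10.7 CPM in wild type. The 17 markers of glia, vessels, meninges, microglia and blood summed to 543 to 672 CPM in the mutant-labelled group and 545 to 691 CPM in wild type. The haemoglobin rows Hba-a1 and Hbb-b1 were at 0 in every library, so they give no measure of blood. Col1a1, a collagen gene of meninges, was 44.4, 20.4 and 16.97 CPM in mutant-labelled libraries, against 59.6, 29.7 and 12.8 CPM in wild type. Of these 2 lists 0 genes passed edgeR's test with or without pairing or DESeq2, and 0 had an unadjusted p under 0.05.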
